A study of Mus musculus with 23 samples.

Results

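Transferred OT-I cells were compared with transferred OT-II cells in mice that had received saline in place of antigen. The members were chosen by their labels: the 3 OT-I saline libraries and the 3 OT-II saline libraries, 6 of the 23 libraries of the series. OT-I is a line of CD8 T cells with a transgenic receptor for an ovalbumin (OVA) peptide on MHC class I, and OT-II is a line of CD4 T cells with a transgenic receptor for an OVA peptide on MHC class II. Both were transferred into wild-type C57BL/6 mice, saline was given on day 1 after transfer, and the cells were sorted on day 5 from spleens and lymph nodes. Each library was made from the combined RNA of 3 mice, amplified to cDNA. The other groups of the series received 1 µg of OVA in the form named A8B1-OVA, free OVA in a molar-equivalent amount, or free OVA at a higher dose. Each cell type came from 1 transgenic line, so CD8 against CD4 identity and one line against the other cannot be told apart here. The comparison addresses how the 2 cell types differ when no antigen has been given.

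CD4 and CD8 T cells arise from a common thymic precursor that carries both co-receptors. The transcription factor ThPOK, the product of Zbtb7b, keeps cells in the CD4 lineage and restrains Runx3 and cytotoxic genes, while Runx3 silences Cd4 and Zbtb7b in cells of the CD8 lineage. CD8 T cells are known for perforin, granzymes and receptors of the kind found on natural killer (NK) cells, and CD4 T cells for CD40 ligand and helper cytokines. The receptor of a CD8 T cell binds peptide on MHC class I with the CD8 co-receptor, and that of a CD4 T cell binds peptide on MHC class II with CD4.

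The deposited table gave between 45086936 and 68228283 counts for each saline library. At those totals, 3 counts correspond to 0.044 to 0.0665 CPM (a count as a share of its library, put on one scale for all), taken here as the floor below which a level was not read. B cell, myeloid and erythroid markers were highest in the libraries numbered 1. The summed B cell markers were 735, 283 and 250 CPM in OT-I libraries 1, 2 and 3 and 954, 343 and 311 CPM in OT-II. The myeloid sum was 741, 362 and 323 CPM in OT-I and 1135, 426 and 471 CPM in OT-II. The erythroid sum ran from 161 to 349 CPM in OT-I and from 275 to 1247 CPM in OT-II, so the groups overlapped for all 3 of these sums, although OT-II was the higher library in every same-numbered pair. By edgeR's quasi-likelihood test, 0 of 19 tested B cell markers differed between the cell types (1 at an unadjusted p under 0.05, and 0 by DESeq2). Of the other cell markers, 1 of 25 myeloid markers (Xcr1, higher in OT-I) and 2 of 16 erythroid markers (Gata1 and Car2, higher in OT-II) passed, or 6 erythroid markers with the replicate number as a block. With that block in the 6 saline libraries alone, 4 B cell, 5 myeloid and 7 erythroid markers were higher in OT-II and 1 of each list in OT-I. Of all 13614 genes tested in that fit, 1582 were higher in OT-II and 1968 in OT-I. The platelet sum was 25.7, 29.4 and 24.8 CPM in OT-I and 55.0, 64.4 and 50.6 CPM in OT-II, and 1 of 8 tested markers passed (Itgb3, higher in OT-II). Most of the platelet sum came from Itgb3, with 23.7, 28.6 and 23.6 CPM in OT-I and 48.6, 58.3 and 44.9 CPM in OT-II. The plasma cell sum was 143, 93.6 and 117 CPM in OT-I and 247, 172 and 172 CPM in OT-II, and 2 of 7 passed (Prdm1 and Xbp1, higher in OT-II). These last sums did not overlap between the cell types. The part of these cells in the results was not tested.

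Of 15235 genes tested, 1273 (8.36%) were higher in OT-I cells and 1083 (7.11%) were higher in OT-II cells at a Benjamini-Hochberg adjusted p under 0.05, together 2356 genes (15.5%). The fold change passed 2 for 558 of the genes higher in OT-I and for 475 of those higher in OT-II, and it passed 16 for 72 and 54 genes. Over all genes tested the median log2 fold change was -0.02, with 7314 of 15235 above 0. The OT-I and OT-II libraries did not overlap for 5297 of the 15235. These all-gene counts and shares apply beside every list count of this fit below. Without both libraries numbered 1, 1499 of 15152 genes passed, 824 higher in OT-I and 675 higher in OT-II. The replicate number, shared by the titles of the 2 groups, was also used as a block. Over all libraries it gave 2514 of 15235, 1370 higher in OT-I and 1144 in OT-II. In the 6 saline libraries alone it gave 3550 of 13614, 1968 higher in OT-I and 1582 in OT-II. Those 6 libraries without a block gave 2775 of 13614, 1536 higher in OT-I and 1239 in OT-II. List counts of these fits are to be read beside these counts. The 2356 calls come from a fit of all 23 libraries, so its p-values and standard errors measure the spread between libraries within all 8 groups. Nothing in the labels says how the pools of mice were formed.

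**Figure D1:**
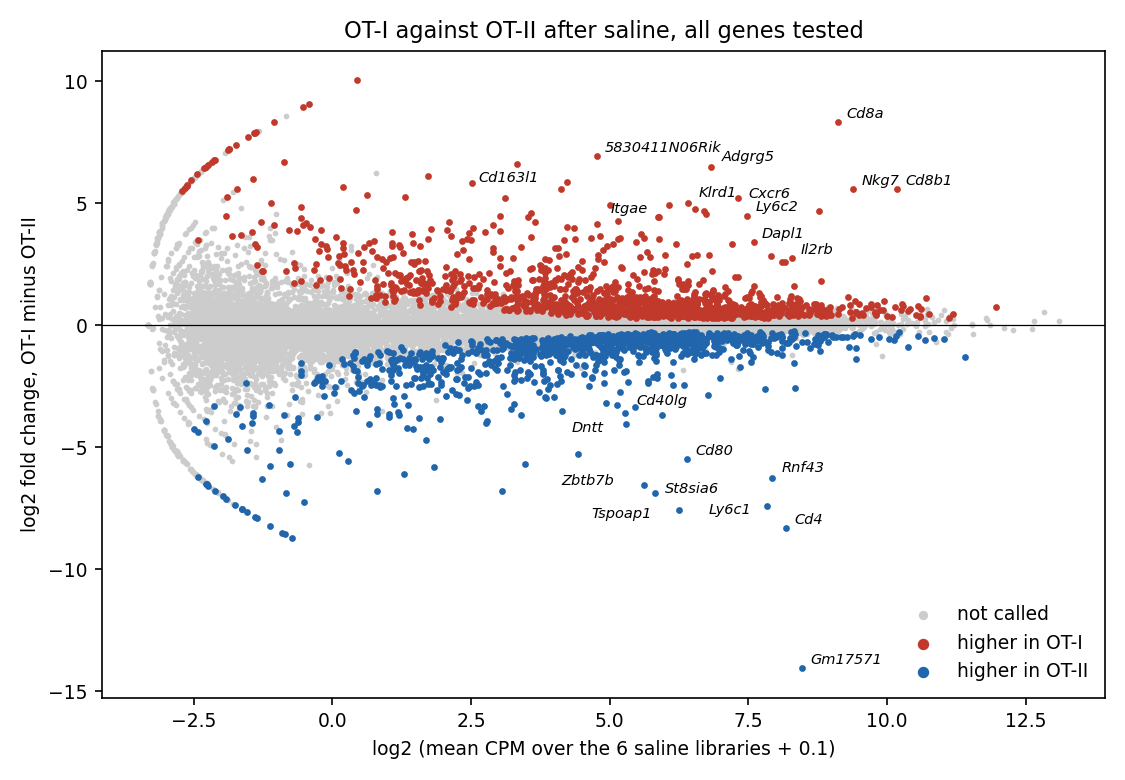
The log2 fold change between OT-I and OT-II saline libraries (vertical axis) against the mean level over the 6 libraries on a log2 scale with 0.1 CPM added (horizontal axis). Each point is 1 of 15235 genes tested; red and blue points are the 1273 and 1083 genes called higher in OT-I and OT-II, and the co-receptors Cd8a and Cd4 lie near 8 and -8.

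The co-receptors separated the groups in the direction of their labels. Cd8a, on chromosome 6 at 71373427 to 71379173 (GRCm38), encodes the alpha chain of CD8 and stood at 1102, 1075 and 1135 CPM in the OT-I libraries and at 7.41, 1.5 and 1.39 CPM in the OT-II libraries. The groups were far apart, with a log2 fold change of 8.33 ± 0.53 (SE; adjusted p = 1.21e-09, n = 3 libraries a group). Cd8b1, the beta chain, lies next to it at 71322788 to 71337494 and had 2233, 2229 and 2306 CPM in OT-I against 52.3, 45.4 and 44.7 CPM in OT-II. The OT-II mean was 2.1% of the OT-I mean for Cd8b1 and 0.311% for Cd8a, and in sorted bulk RNA a few CD8 cells and a low level in every cell cannot be told apart. Cd4, on chromosome 6 at 124864692 to 124888221, had 631, 544 and 560 CPM in OT-II and 2.19, 2.07 and 1.1 CPM in OT-I (log2 fold change -8.33 ± 1.44, adjusted p = 0.000336). DESeq2 returned no adjusted p for Cd4.

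Zbtb7b showed the same separation as Cd4. This gene, on chromosome 3 at 89377644 to 89394776, had 98.4, 91.1 and 103 CPM in OT-II libraries and 1.65, 0.567 and 0.925 CPM in OT-I libraries. The log2 fold change was -6.54 ± 0.95 (adjusted p = 4.84e-05). Runx3, on chromosome 4 at 135120652 to 135177990, was present in both cell types and differed far less: 132, 153 and 137 CPM in OT-I against 62.9, 65.9 and 71.8 CPM in OT-II (1.07 ± 0.13, adjusted p = 3.92e-06). Runx1, a second DNA-binding Runx factor, went the other way, with 36.7, 45.2 and 28.1 CPM in OT-I and 98.1, 108 and 109 CPM in OT-II (-1.52 ± 0.17, adjusted p = 1.71e-06). Neither gene overlapped between the groups.

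Among 26 tested lineage regulators, 6 were higher in OT-I and 11 in OT-II, against 8.36% and 7.11% of all genes. Their median log2 fold change was -0.13. Eomes, a T-box factor of effector and memory CD8 cells on chromosome 9 at 118478212 to 118486132, had 61.2, 75.3 and 65.5 CPM in OT-I and 5.54, 2.43 and 2.63 CPM in OT-II (4.25 ± 0.36, adjusted p = 4.94e-08). The related Tbx21 had 40.8, 41.4 and 50.8 CPM against 9.77, 7.04 and 9.28 CPM (2.35 ± 0.38, adjusted p = 0.00019). Both were higher in every OT-I library than in any OT-II library. Gata3, a factor needed for CD4 lineage cells, was higher in OT-II by less than 2-fold, at 105, 106 and 105 CPM against 56.2, 58.9 and 62.8 CPM (-0.83 ± 0.09, adjusted p = 7.26e-07).

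Factors shared by naive T cells differed little. Tcf7, which encodes TCF-1, had 1617 to 1720 CPM in OT-I and 2217 to 2696 CPM in OT-II (-0.55 ± 0.08, adjusted p = 3.54e-05). Satb1, a chromatin organizer, had 822 to 876 CPM and 1219 to 1293 CPM (-0.55 ± 0.16, adjusted p = 0.0193), and Patz1, a zinc finger regulator of the co-receptor genes, had 75.2 to 76.4 CPM and 90.7 to 109 CPM (-0.44 ± 0.12, adjusted p = 0.0174). Lef1 did not pass, with 721 to 781 CPM in OT-I and 653 to 691 CPM in OT-II (0.15 ± 0.09, adjusted p = 0.314). Tox, needed for CD4 lineage development, had 80.8 to 94.2 CPM and 105 to 108 CPM; its adjusted p was 0.0556, and 0.0284 with the replicate block in the 6 saline libraries.

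**Figure D2:**
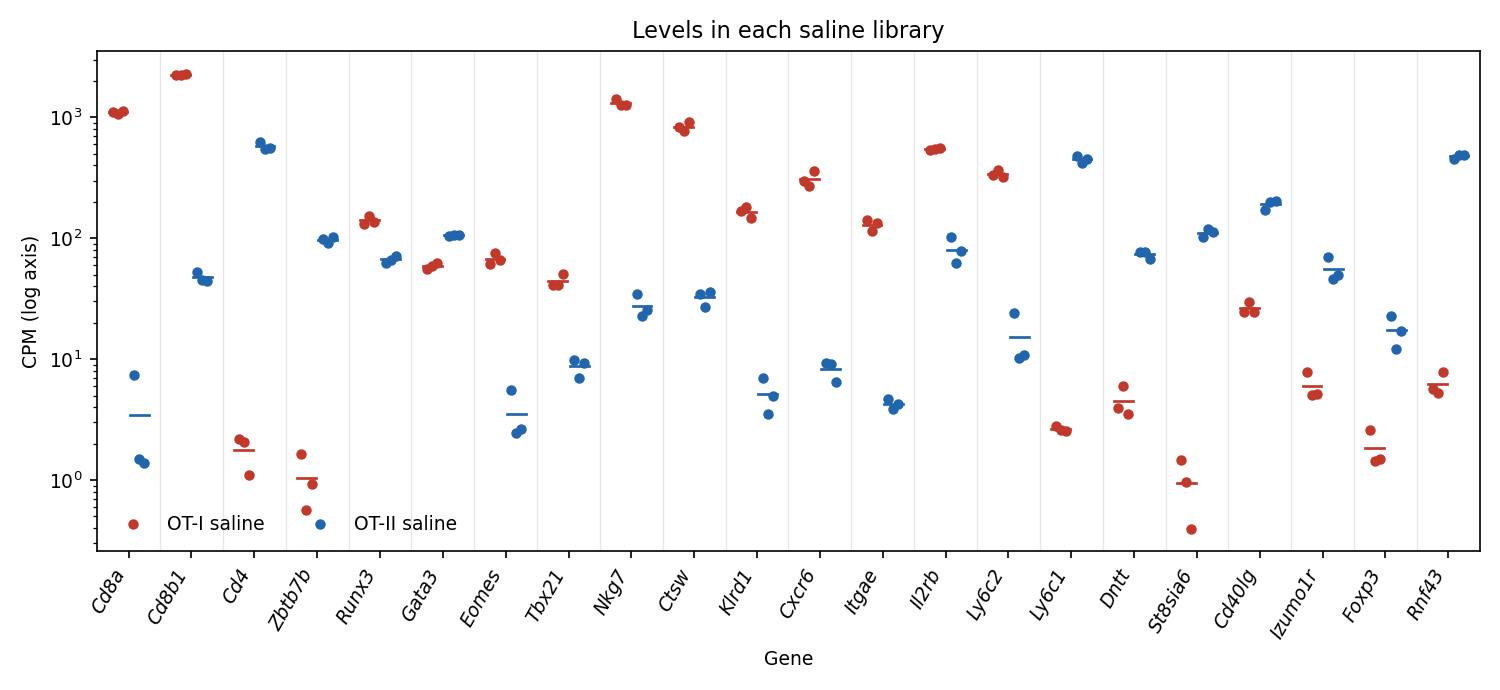
Level of 22 named genes in each saline library, in CPM on a log axis; each dot is 1 library, red for OT-I and blue for OT-II, and each bar is the mean of 3. For every gene shown the OT-I dots and the OT-II dots occupy separate ranges, from Cd8a at 1075 to 1135 CPM against 1.39 to 7.41 CPM to Runx3 at 132 to 153 CPM against 62.9 to 71.8 CPM.

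Runx factors bind DNA with the core TGTGGT. The core was searched on both strands in the promoter windows of the RefSeq table (GRCm38.p6), which run from 250 bases before to 50 bases after a gene's start. It was present in 168 of the 1003 genes higher in OT-I that had a window (16.7%), in 75 of the 828 higher in OT-II (9.06%) and in 1570 of all 11841 tested genes (13.3%). Over all 27025 RefSeq windows, of tested genes or not, 4573 held it (16.9%). Among genes past 4-fold, 43 of 193 higher in OT-I (22.3%) and 11 of 137 higher in OT-II (8.03%) held it. For comparison AGATAA, the core bound by GATA factors, searched the same way, was in 7.28%, 6.88% and 7.67% of the same first 3 sets. Among genes past 4-fold it was in 8.29% of those higher in OT-I and 7.3% of those higher in OT-II. All 27025 windows held it in 11.4%. The shares are a description of letters in a window, given without a test.

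The 250 bases before the start of 4 genes higher in OT-I that hold the core are shown 5′ to 3′ on the gene's strand, with each match to the Runx core, on either strand, in capitals. They were picked, with their values known, from the genes called higher in OT-I to show where in the window the core lies, and Runx3 itself holds a pair of matches 2 bases apart. Their intervals in GRCm38.p6 are chr4:135120395-135120644 for Runx3, chr7:43436888-43437137 for Nkg7, chr9:123806227-123806476 for Cxcr6 and chr8:94923444-94923693 for Adgrg5, all on the plus strand.
Runx3: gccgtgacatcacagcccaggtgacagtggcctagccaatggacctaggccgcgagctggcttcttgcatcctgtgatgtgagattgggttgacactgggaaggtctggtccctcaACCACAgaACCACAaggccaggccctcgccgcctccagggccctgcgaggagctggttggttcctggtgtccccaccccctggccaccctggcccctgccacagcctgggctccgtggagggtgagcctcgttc
Nkg7: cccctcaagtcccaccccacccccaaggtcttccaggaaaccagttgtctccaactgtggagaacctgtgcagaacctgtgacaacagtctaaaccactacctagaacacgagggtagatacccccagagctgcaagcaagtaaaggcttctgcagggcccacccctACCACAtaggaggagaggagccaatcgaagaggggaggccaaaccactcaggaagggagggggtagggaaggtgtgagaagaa
Cxcr6: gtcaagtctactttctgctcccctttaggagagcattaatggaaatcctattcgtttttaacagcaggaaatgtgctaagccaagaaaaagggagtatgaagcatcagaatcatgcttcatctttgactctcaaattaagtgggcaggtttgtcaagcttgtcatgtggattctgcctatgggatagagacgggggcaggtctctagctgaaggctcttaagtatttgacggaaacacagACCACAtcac
Adgrg5: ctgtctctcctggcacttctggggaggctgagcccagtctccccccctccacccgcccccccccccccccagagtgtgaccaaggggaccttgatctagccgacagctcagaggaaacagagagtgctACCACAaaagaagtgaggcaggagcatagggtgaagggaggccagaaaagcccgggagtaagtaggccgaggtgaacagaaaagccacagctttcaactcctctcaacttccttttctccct
The 250 bases before the start of Cd8a, Zbtb7b, Eomes, Tbx21, Gata3, Slc6a19 and Dapl1 held no match to the core.

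Cytotoxic and effector genes were mostly higher in OT-I cells where they differed. Of 28 tested, 15 were higher in OT-I and 2 in OT-II, against 8.36% and 7.11% of all genes, and the median log2 fold change was 1.32. Nkg7, a granule membrane protein, had 1417, 1263 and 1267 CPM in OT-I and 34.5, 22.6 and 25.5 CPM in OT-II (5.58 ± 0.38, adjusted p = 3.16e-09). Ctsw, the protease cathepsin W, had 827, 774 and 908 CPM against 34.9, 26.9 and 36.2 CPM (4.68 ± 0.18, adjusted p = 5.56e-13). Cst7, a cathepsin inhibitor of granules, had 166, 157 and 144 CPM against 27.7, 20.4 and 18.2 CPM (2.82 ± 0.24, adjusted p = 4.33e-08). The groups did not overlap for these 3 genes.

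The killing molecules themselves were less uniform. Prf1, perforin, had 153, 158 and 171 CPM in OT-I and 49.5, 41.3 and 41.3 CPM in OT-II (1.87 ± 0.17, adjusted p = 1.36e-07). Gzmm, granzyme M, had 10.4, 7.32 and 9.31 CPM against 0.985, 0.555 and 1.65 CPM (3.09 ± 0.48, adjusted p = 9.88e-05). Granzyme A and B did not pass: Gzma had 10.9 to 11.9 CPM and 4.37 to 11.2 CPM (adjusted p = 0.605), and Gzmb had 5.57 to 7.77 CPM and 1.48 to 3.71 CPM (1.48 ± 0.60, adjusted p = 0.106, and 0.002 with the replicate block over all libraries). Ccl5, a chemokine of effector and memory cells, had 90.6, 100 and 82.5 CPM in OT-I and 22.1, 12.5 and 21.8 CPM in OT-II (2.28 ± 0.45, adjusted p = 0.00112). Ifng, the main CD8 effector cytokine, had 1.88 to 3.28 CPM in OT-I and 1.78 to 2.29 CPM in OT-II (adjusted p = 0.79). Prf1, Gzma and Gzmb were named after their values were seen.

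Only 2 genes of the cytotoxic list were higher in OT-II, and both were named after their values were seen. Fasl, the death receptor ligand, had 23.7, 26.5 and 33.8 CPM in OT-II and 4.31, 1.64 and 5.1 CPM in OT-I (-2.93 ± 0.39, adjusted p = 1.77e-05). Tnf had 25.9, 23.2 and 20 CPM in OT-II and 9.63, 13.1 and 8.37 CPM in OT-I (-1.15 ± 0.32, adjusted p = 0.0174). Both had the same direction with molar-equivalent OVA, at -2.45 (adjusted p = 0.00011) and -1.12 (adjusted p = 0.021).

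Receptors of the NK type were higher in OT-I where they differed. Of 24 tested, 8 were higher in OT-I and 0 in OT-II, against 8.36% and 7.11% of all genes, with a median log2 fold change of 1.08. Klrd1, which encodes CD94, had 169, 181 and 147 CPM in OT-I and 6.99, 3.51 and 4.99 CPM in OT-II (5.01 ± 0.31, adjusted p = 9.01e-10). Klrc1, its partner NKG2A, had 11.8, 10.9 and 16.5 CPM against 3.32, 0.555 and 1.03 CPM (3.01 ± 0.59, adjusted p = 0.00112), and 53% of the 31-base words of its transcripts also occur in other genes. Cd160, an inhibitory and activating surface receptor, had 73.9, 55.7 and 64.5 CPM against 5.99, 4.69 and 6.3 CPM (3.52 ± 0.24, adjusted p = 2.48e-09), and Slamf7 had 13 to 16.5 CPM against 2.27 to 4.69 CPM (2.21 ± 0.38, adjusted p = 0.000328). No OT-II library reached the OT-I range for any of the 4.

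Markers of NK cells were also higher in OT-I where they differed. Klrc1, Klra9, Klre1, Klrb1c and Ncr1, among others, are members of both this list and the NK-type receptors, so the lists are not independent. The summed NK cell markers were 393, 288 and 328 CPM in OT-I and 124, 52.1 and 55.2 CPM in OT-II, and 5 of 14 tested were higher in OT-I: Cd7, Il12rb2, Klrc1, Klra9 and Klre1. Most of the sum came from Cd7, a surface protein of T and NK cells, with 315, 228 and 266 CPM against 33.5, 19.8 and 26.8 CPM (3.34 ± 0.20, adjusted p = 6.99e-10). Of the defining NK cell receptors, Ncr1, which encodes NKp46, had 1.09 to 1.51 CPM in OT-I and 1.31 to 2.59 CPM in OT-II, and Klrb1c, which encodes NK1.1, had 3.79 to 5.92 CPM and 1.69 to 5.5 CPM. The groups overlapped for both, and neither passed the test (adjusted p = 0.646 and 0.545). The part of NK cells in the NK-type receptors was not tested.

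The Ly6C genes moved in opposite directions. Ly6c1 and Ly6c2 encode near-identical GPI-anchored surface proteins, together stained as Ly6C, and lie on chromosome 15 at 75044018 to 75048830 and 75108158 to 75111970, 59328 bases apart. Ly6c1 had 477, 422 and 456 CPM in OT-II and 2.77, 2.61 and 2.53 CPM in OT-I (-7.42 ± 1.06, adjusted p = 4.23e-05). Ly6c2 had 332, 365 and 323 CPM in OT-I and 24.2, 10.3 and 10.9 CPM in OT-II (4.49 ± 0.36, adjusted p = 2.59e-08). Each cell type thus had 1 of the 2 genes at a level above every library of the other.

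Their coding sequences are 396 bases each and 97.7% identical, with 9 differing bases and a longest shared run of 188 bases. Bases 1 to 120 of each, read from the transcripts of GENCODE release M21, are shown with the 6 differing bases of that stretch in capitals, to show where the transcripts differ.
Ly6c1: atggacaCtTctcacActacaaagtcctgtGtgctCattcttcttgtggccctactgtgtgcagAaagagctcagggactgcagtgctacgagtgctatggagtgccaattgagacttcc
Ly6c2: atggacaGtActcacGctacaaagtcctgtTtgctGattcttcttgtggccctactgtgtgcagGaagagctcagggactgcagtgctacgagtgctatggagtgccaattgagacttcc
Of the 31-base words in their transcripts, 37.3% for Ly6c1 and 51.2% for Ly6c2 also occur in another gene, so their levels depend on how the pseudoalignment divided the shared reads. Of 20 tested Ly6 and GPI-anchored genes, 6 were higher in OT-I and 4 in OT-II (median 0.02). Ly6a, which encodes Sca-1, had 459, 327 and 366 CPM in OT-II and 72, 64.9 and 48.2 CPM in OT-I (-2.64 ± 0.25, adjusted p = 2.59e-07), and shares 29.2% of its words.

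Of 27 helper T cell genes tested, 11 were higher in OT-II, 3 were higher in OT-I and 13 did not pass, against 7.11% and 8.36% of all genes higher in OT-II and OT-I. The median log2 fold change was -0.86. Cd40lg, the CD40 ligand with which helper cells license B cells, had 170, 198 and 204 CPM in OT-II and 24.4, 30 and 24.4 CPM in OT-I (-2.86 ± 0.40, adjusted p = 3.74e-05). Cd28, the co-stimulatory receptor, had 353, 393 and 412 CPM against 157, 152 and 179 CPM (-1.24 ± 0.11, adjusted p = 1.53e-07). Tnfrsf4, which encodes OX40, had 24.3, 12.5 and 13.6 CPM against 2.04, 1.67 and 0.963 CPM (-3.42 ± 0.44, adjusted p = 1.24e-05), and Tnfsf11, which encodes RANKL, had 8.14 to 13 CPM against 1.63 to 2.21 CPM (-2.35 ± 0.35, adjusted p = 7.48e-05). Icos, a co-stimulator of follicular helper cells, did not differ beyond the spread, at 47.7 to 58.4 CPM in OT-II and 57.2 to 66.3 CPM in OT-I (adjusted p = 0.201).

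Of the 3 helper-list genes higher in OT-I, those given here were named after their values were seen. Cxcr5, the receptor for the follicle chemokine, had 16.3, 21.7 and 21.3 CPM in OT-I and 10.9, 5.19 and 8.65 CPM in OT-II (1.26 ± 0.30, adjusted p = 0.00511). Tnfsf14, which encodes the TNF family ligand LIGHT, had 5.12 to 6.28 CPM in OT-I and 1.14 to 3.63 CPM in OT-II (1.45 ± 0.42, adjusted p = 0.0214).

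Of 22 tested genes associated with regulatory T cells, 12 were higher in OT-II and 1 in OT-I, against 7.11% and 8.36% of all genes (median -1.24). Foxp3, the factor that defines regulatory T cells, had 22.8, 12.2 and 17.1 CPM in OT-II and 2.58, 1.45 and 1.49 CPM in OT-I (-3.23 ± 0.54, adjusted p = 0.00022). Izumo1r, which encodes folate receptor 4, had 69.4, 46.1 and 50 CPM against 7.88, 5.07 and 5.19 CPM (-3.19 ± 0.36, adjusted p = 2.92e-06). Nrp1, a semaphorin receptor of thymic regulatory cells, had 23.3, 21.7 and 31.5 CPM against 3.31, 2.97 and 3.25 CPM (-3.0 ± 0.33, adjusted p = 2.05e-06). No OT-I library reached the OT-II range of these genes.

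Others of the list followed. Lrrc32, which encodes the TGF-beta docking protein GARP, had 5, 4.98 and 3.92 CPM in OT-II, while the OT-I libraries were listed at 0.0487, 0.119 and 0.0189 CPM (adjusted p = 1.43e-05). Gpr83 had 11 to 15 CPM against 0.34 to 0.999 CPM (-4.03 ± 0.61, adjusted p = 7.76e-05), and the inhibitory receptor Ctla4 had 15.5 to 23.3 CPM against 6.5 to 11.1 CPM (-1.24 ± 0.33, adjusted p = 0.0116). The member higher in OT-I was Ikzf2, which encodes Helios, at 12.2, 11.3 and 12.1 CPM in OT-I and 7.1, 5.11 and 9.49 CPM in OT-II (0.72 ± 0.22, adjusted p = 0.03), named after its values were seen and lost in 5 of the 6 fits that left out 1 saline library. Whether few Foxp3-positive cells or a low level in many cells gave these values cannot be told apart in bulk RNA.

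Genes of the T cell receptor complex and its signal split evenly. Of 46 tested genes of the complex and its proximal signalling, 8 were higher in each cell type, with a median log2 fold change of 0.00. Cd6 and Cd5, surface receptors that dampen the receptor signal, were higher in OT-I: Cd6 had 910, 845 and 972 CPM against 518, 409 and 458 CPM (0.98 ± 0.12, adjusted p = 1.06e-05), and Cd5 had 378, 389 and 374 CPM against 245, 231 and 239 CPM (0.67 ± 0.10, adjusted p = 4.9e-05). Ubash3b, a phosphatase that removes the receptor's signal, had 56 to 65.2 CPM in OT-I and 24.1 to 31 CPM in OT-II (1.15 ± 0.16, adjusted p = 2.46e-05). In the other direction Trat1, an adaptor of the receptor complex, had 126, 133 and 139 CPM in OT-II and 51.7, 45.8 and 53.5 CPM in OT-I (-1.40 ± 0.20, adjusted p = 3.73e-05). Themis, a thymic selection protein, did not pass (0.16 ± 0.24, adjusted p = 0.727).

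Genes that respond early to receptor signals were called on both sides, with a median log2 fold change of -0.41 and 18 of 28 below 0. Their summed level was 6053, 5613 and 5599 CPM in OT-I and 11391, 10177 and 9659 CPM in OT-II, with no overlap. Of 28 tested, 6 were higher in OT-II and 4 in OT-I (10 and 6 with the replicate block). Nr4a1, which encodes the receptor-induced factor Nur77, had 279, 236 and 314 CPM in OT-II and 99.1, 70.8 and 118 CPM in OT-I (-1.53 ± 0.31, adjusted p = 0.00163), and Dusp5, a phosphatase of ERK, had 146 to 243 CPM against 58.5 to 96.5 CPM (-1.39 ± 0.25, adjusted p = 0.000541). Myc, the growth regulator, was higher in OT-I at 277, 307 and 302 CPM against 120, 112 and 121 CPM (1.33 ± 0.12, adjusted p = 7.45e-08), as were Ier3 (2.10 ± 0.46, adjusted p = 0.00277) and Tagap (0.55 ± 0.12, adjusted p = 0.0022). Tagap shares 54.9% of its 31-base words with other genes. Egr2, an anergy-associated factor, did not pass, with 10.2 to 11.8 CPM in OT-I and 10.8 to 17.4 CPM in OT-II (adjusted p = 0.513).

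Genes known to respond to cell handling were mostly higher in OT-II where they differed. Fos, Fosb, Jun, Junb, Ier2, Ier3, Egr1 and Dusp1 are in both this list and the early response list, so the lists are not independent. Of these, Ier3 was higher in OT-I. The summed level of the handling genes was 13586, 15197 and 12617 CPM in OT-I and 20323, 23262 and 17671 CPM in OT-II, with no overlap. Of 24 tested, 5 were higher in OT-II and 2 in OT-I (10 and 3 with the replicate block), among them Zfp36 (-1.07 ± 0.23, adjusted p = 0.00283) and Btg2 (-0.94 ± 0.15, adjusted p = 0.000123), both RNA-decay and growth regulators. The part of handling in the early response genes was not tested.

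Cytokine receptors differed in which chains each cell type carried. Of 31 tested, 9 were higher in OT-I and 5 in OT-II, against 8.36% and 7.11% of all genes. Il2rb, the beta chain shared by the IL-2 and IL-15 receptors, had 533, 552 and 554 CPM in OT-I and 102, 62 and 78.4 CPM in OT-II (2.76 ± 0.24, adjusted p = 5.91e-08). Il12rb2, a chain of the IL-12 receptor, had 8.5, 10 and 11.9 CPM against 0.309, 0.931 and 1.48 CPM (3.48 ± 0.44, adjusted p = 1.03e-05), and Il18rap had 16.5 to 22.4 CPM against 3.26 to 4.46 CPM (2.30 ± 0.23, adjusted p = 4.69e-07). Il7r, the IL-7 receptor chain on which naive T cells depend, had 425, 449 and 442 CPM against 251, 264 and 278 CPM (0.73 ± 0.20, adjusted p = 0.0146). Each of these was higher in every OT-I library.

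On the OT-II side, Tgfbr3, the TGF-beta co-receptor betaglycan, had 111, 127 and 118 CPM and 20.7, 26.7 and 18.2 CPM in OT-I (-2.44 ± 0.32, adjusted p = 1.37e-05). Il4ra and Il6ra did not pass (adjusted p = 0.436 and 0.186), with Il6ra at 129 to 147 CPM in OT-I and 165 to 193 CPM in OT-II. With the replicate block in the 6 saline libraries the adjusted p of Il6ra was 0.0199. Of 22 tested Jak, Stat and Socs genes, 2 were higher in OT-I and 4 in OT-II, against 8.36% and 7.11% of all genes. Stat4, which carries the IL-12 signal, had 257, 283 and 319 CPM in OT-I and 160, 169 and 160 CPM in OT-II (0.81 ± 0.14, adjusted p = 0.000343). The feedback inhibitors Cish and Socs3 were higher in OT-II, Cish at 22.8 to 27.8 CPM against 10.7 to 13.7 CPM (-1.08 ± 0.21, adjusted p = 0.000853) and Socs3 at 389, 177 and 191 CPM against 145, 99.9 and 102 CPM (-1.12 ± 0.27, adjusted p = 0.00623).

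Homing receptors separated the cell types more by member than in sum, with a median of 0.08. Of 29 tested, 6 were higher in OT-I and 4 in OT-II, against 8.36% and 7.11% of all genes. Cxcr6, a receptor for CXCL16 found on resident and effector cells, had 299, 273 and 360 CPM in OT-I and 9.36, 9.11 and 6.47 CPM in OT-II (5.22 ± 0.21, adjusted p = 1.05e-12). Ccr9, the gut-homing receptor, had 118, 143 and 127 CPM against 30.6, 43.9 and 47.8 CPM (1.66 ± 0.20, adjusted p = 4.73e-06). Gpr183, which responds to oxysterols and positions cells at the T zone border, was higher in OT-II at 247, 255 and 311 CPM against 112, 102 and 115 CPM (-1.31 ± 0.12, adjusted p = 1.53e-07).

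Other genes of lymphoid recirculation did not pass in the fit without a block. Ccr7, which brings naive cells into lymph nodes, had 821 to 1070 CPM in OT-I and 973 to 1271 CPM in OT-II, and S1pr1, which lets cells leave them, had 763 to 851 CPM and 898 to 1065 CPM. Their adjusted p-values were 0.288 and 0.105, and 0.0135 and 0.011 with the replicate block in the 6 saline libraries. Klf2, a regulator of both, had 798 to 857 CPM and 713 to 745 CPM (adjusted p = 0.29, and 0.0468 with that block). Cxcr3 was higher in OT-I, at 54.4 to 59.4 CPM against 20.2 to 31.9 CPM (1.12 ± 0.33, adjusted p = 0.025), a call lost in 5 of the 6 fits that left out 1 saline library.

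Of 30 tested integrin and adhesion genes, 7 were higher in OT-I and 5 in OT-II, against 8.36% and 7.11% of all genes. Itgae, which encodes the CD103 chain that binds E-cadherin, had 141, 114 and 133 CPM in OT-I and 4.69, 3.89 and 4.24 CPM in OT-II (4.92 ± 0.36, adjusted p = 6.21e-09). Icam1 had 256, 227 and 245 CPM against 75, 51.3 and 58.3 CPM (1.98 ± 0.18, adjusted p = 1.44e-07), and Cd226, an activating receptor for nectin-like ligands, had 119 to 137 CPM against 50.6 to 63.4 CPM (1.20 ± 0.15, adjusted p = 7.33e-06). All 3 were present at a higher level in each OT-I library.

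Genes that tell naive from memory cells showed no common direction. Of 34 tested, 11 were higher in OT-I and 9 in OT-II (median -0.05). Cd44, the usual surface marker of antigen experience, had 50.6, 44.1 and 39.8 CPM in OT-I and 72.4, 60 and 56.7 CPM in OT-II (-0.49 ± 0.20, adjusted p = 0.121, and 0.0194 with the replicate block over all libraries). Dapl1, a marker of naive and early memory CD8 cells, had 374, 380 and 305 CPM in OT-I and 39.2, 29.2 and 31.7 CPM in OT-II (3.40 ± 0.27, adjusted p = 2.59e-08). Bcl2, a survival factor, had 259, 303 and 321 CPM against 120, 140 and 129 CPM (1.18 ± 0.18, adjusted p = 0.000116), and Cd27 had 389 to 429 CPM against 508 to 567 CPM (-0.42 ± 0.10, adjusted p = 0.00751). Pde2a, a cyclic nucleotide phosphodiesterase, had 178 to 222 CPM in OT-I and 6.71 to 8.61 CPM in OT-II (4.66 ± 0.38, adjusted p = 3.68e-08), but 86.2% of its 31-base words occur in other genes.

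Genes associated with recent thymic emigrants, of which 18 were tested, gave 5 higher in OT-I and 6 in OT-II. Of all genes, 8.36% and 7.11% were. Dntt, the terminal transferase of thymocytes, on chromosome 19 at 41029275 to 41059525, had 77.1, 76.6 and 67.9 CPM in OT-II and 3.92, 6 and 3.49 CPM in OT-I (-4.04 ± 0.49, adjusted p = 6.8e-06). St8sia6, an enzyme that joins sialic acid to sialic acid on glycans, on chromosome 2 at 13651021 to 13794064, had 101, 120 and 112 CPM in OT-II and 1.46, 0.955 and 0.397 CPM in OT-I (-6.87 ± 1.09, adjusted p = 0.000138). Ldhb, a subunit of lactate dehydrogenase, had 88.1, 78.6 and 91.3 CPM against 19.5, 13.6 and 16.2 CPM (-2.39 ± 0.31, adjusted p = 1.38e-05). In each of the 3 the OT-II libraries lay together and far above OT-I.

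Glycan enzymes went both ways. Of 35 tested, 6 were higher in OT-I and 3 in OT-II, against 8.36% and 7.11% of all genes. St3gal2, a sialyltransferase, had 27.9 to 35.6 CPM in OT-II and 1.98 to 3.31 CPM in OT-I (-3.50 ± 0.41, adjusted p = 3.79e-06). B4galnt1, which builds complex gangliosides, had 1490 to 1662 CPM in OT-I and 791 to 985 CPM in OT-II (0.86 ± 0.11, adjusted p = 1.18e-05), and Chst15, a sulfotransferase, had 32.7 to 34.9 CPM against 12.5 to 18.1 CPM (1.20 ± 0.21, adjusted p = 0.000394).

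Inhibitory receptors also lay on both sides, with 3 of 22 tested higher in OT-I (Cd160, Cd96 and Cd5) and 5 in OT-II. Of all genes, 8.36% and 7.11% were. Pdcd1, which encodes PD-1, had 29.3, 13.8 and 12.3 CPM in OT-II and 3.88, 5.13 and 3.34 CPM in OT-I (-2.16 ± 0.38, adjusted p = 0.000408). Cd200r1 had 22.8, 24.8 and 20.9 CPM against 3.41, 3.4 and 3.3 CPM (-2.76 ± 0.38, adjusted p = 2.86e-05), and its ligand Cd200 had 16.5 to 24.1 CPM against 5.82 to 6.11 CPM (-1.83 ± 0.32, adjusted p = 0.000336). Cd96 was higher in OT-I, at 329 to 372 CPM against 186 to 220 CPM (0.75 ± 0.10, adjusted p = 2.38e-05). Of 29 tested co-stimulatory TNF family genes, 4 were higher in OT-I and 5 in OT-II, with Lta, which encodes lymphotoxin alpha, at 34.5 to 42.6 CPM in OT-II and 19.4 to 20.8 CPM in OT-I (-0.89 ± 0.18, adjusted p = 0.00157).

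Of 25 tested genes of MHC class I presentation, 7 were higher in OT-I and 2 in OT-II (median 0.16). Of all genes, 8.36% and 7.11% were. H2-Q6 had 675, 716 and 696 CPM in OT-I and 230, 174 and 195 CPM in OT-II (1.80 ± 0.14, adjusted p = 2.65e-08), with 37.3% of its words shared with other genes. Erap1, which trims peptides, had 220 to 253 CPM against 115 to 140 CPM (0.84 ± 0.18, adjusted p = 0.00199). The 2 higher in OT-II, named after their values were seen, were Cd1d1 (-0.84 ± 0.19, adjusted p = 0.00374) and H2-T24 (-0.49 ± 0.16, adjusted p = 0.0434).

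Interferon-stimulated genes had a median of 0.02, with 2 of 48 tested higher in OT-I and 8 in OT-II (6 and 13 with the replicate block), against 8.36% and 7.11% of all genes. Slfn2, a Schlafen protein that keeps T cells quiescent, had 957, 848 and 933 CPM in OT-II and 473, 456 and 517 CPM in OT-I (-0.92 ± 0.10, adjusted p = 2.01e-06). Ifi44 had 8.44, 17.4 and 8.98 CPM in OT-II and 0.843, 1.95 and 0.245 CPM in OT-I (-3.50 ± 0.73, adjusted p = 0.00199). Oas3, a sensor enzyme of viral RNA, was higher in OT-I at 64.9, 85.7 and 67.9 CPM against 25.3, 31 and 22.5 CPM (1.47 ± 0.27, adjusted p = 0.000551).

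Gimap genes encode GTPases that sustain lymphocyte survival and lie in a cluster. Of 8 tested, Gimap7 and Gimap5 were higher in OT-I, and Gimap1, Gimap6 and Gimap9 in OT-II, Gimap5 being named after its values were seen. Gimap7 had 194, 178 and 186 CPM in OT-I and 91.9, 73 and 78.7 CPM in OT-II (1.19 ± 0.17, adjusted p = 3.87e-05), and Gimap6 had 734 to 783 CPM in OT-I and 1036 to 1115 CPM in OT-II (-0.50 ± 0.12, adjusted p = 0.00769). Of 29 tested genes of apoptosis and survival, 5 were higher in each cell type, against 8.36% of all genes in OT-I and 7.11% in OT-II. Bbc3, which encodes the death inducer PUMA, had 104, 80.3 and 92.6 CPM in OT-I and 17.6, 8.71 and 13.6 CPM in OT-II (2.80 ± 0.25, adjusted p = 1.28e-07), Bid, another, had 51.3 to 58.7 CPM against 24.1 to 30.9 CPM (1.04 ± 0.15, adjusted p = 3.87e-05), and the survival kinase Pim2 had 449 to 505 CPM against 147 to 180 CPM (1.59 ± 0.14, adjusted p = 7.35e-08).

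Cell cycle genes leaned to OT-I, with 43 of 46 tested above 0, against 7314 of all 15235, and a median of 0.77. Of the 46, only 9 passed in OT-I and 2 in OT-II, against 8.36% and 7.11% of all genes. With the replicate block 21 were higher in OT-I and 2 in OT-II. Ccne1, cyclin E1, had 24.6, 25 and 23.8 CPM in OT-I and 5.12, 3.05 and 3.04 CPM in OT-II (2.71 ± 0.30, adjusted p = 1.7e-06), and Uhrf1, a DNA methylation factor of S phase, had 32.9 to 40.6 CPM against 5.33 to 9.06 CPM (2.25 ± 0.35, adjusted p = 0.000126). Mki67, which marks cycling cells, was at 5.22, 9.58 and 3.72 CPM in OT-I and 5.31, 0.588 and 1.54 CPM in OT-II, and the groups overlapped (1.33 ± 0.65, adjusted p = 0.197). Without OT-II library 1, Mki67 passed (adjusted p = 0.0212), higher in OT-I. The 2 higher in OT-II, named after their values were seen, were Cdc45 (-1.63 ± 0.41, adjusted p = 0.00915) and Stmn1 (-1.12 ± 0.33, adjusted p = 0.0234).

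Ribosomal protein genes were above 0 in 78 of 78 tested, against 7314 of all 15235, with a median log2 fold change of 0.51. Of the 78, 15 passed, all higher in OT-I, against 8.36% of all genes. Rpl4 had 1621, 1649 and 1424 CPM in OT-I and 1002, 864 and 891 CPM in OT-II (0.77 ± 0.11, adjusted p = 7.03e-05). The count moved with the libraries fitted: 2 passed without both libraries numbered 1 (median 0.52), 54 in the 6 saline libraries alone and 66 with the replicate block there, all higher in OT-I. In the mice given molar-equivalent OVA, where 8.91% of all genes were higher in OT-I, 40 of the 78 were. Of 56 oxidative phosphorylation genes, 50 were above 0 (median 0.19) and 3 passed, Ndufa10, Ndufa4 and Atp5b, all higher in OT-I, against 8.36% of all genes. The replicate block gave 6, the 6 saline libraries alone gave 12 and the block there gave 17, all higher in OT-I, while 0 passed without both libraries numbered 1 (median 0.18).

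Among 23 tested glycolysis genes, 7 were higher in OT-I and 5 in OT-II (3 and 3 without both libraries numbered 1). Of all genes, 8.36% and 7.11% were. Slc16a1, the lactate transporter MCT1, had 115, 116 and 134 CPM in OT-I and 38.7, 31.6 and 43.1 CPM in OT-II (1.69 ± 0.14, adjusted p = 5.91e-08). Pdk1, which keeps pyruvate out of mitochondria, was higher in OT-II at 415 to 421 CPM against 213 to 266 CPM (-0.84 ± 0.14, adjusted p = 0.000193). Genes of cholesterol synthesis and uptake went 1 way where they passed, with a median of -0.36. Of 28 tested, 9 were higher in OT-II and 0 in OT-I, against 7.11% and 8.36% of all genes. Without both libraries numbered 1, 4 were higher in OT-II. Fdft1, squalene synthase, had 35.1, 41.4 and 37.2 CPM in OT-II and 21.1, 24.4 and 23.4 CPM in OT-I (-0.72 ± 0.13, adjusted p = 0.000448), and Sqle, squalene epoxidase, had 44.5 to 57.1 CPM against 18.8 to 32.7 CPM (-0.93 ± 0.20, adjusted p = 0.00201).

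**Figure D3:**
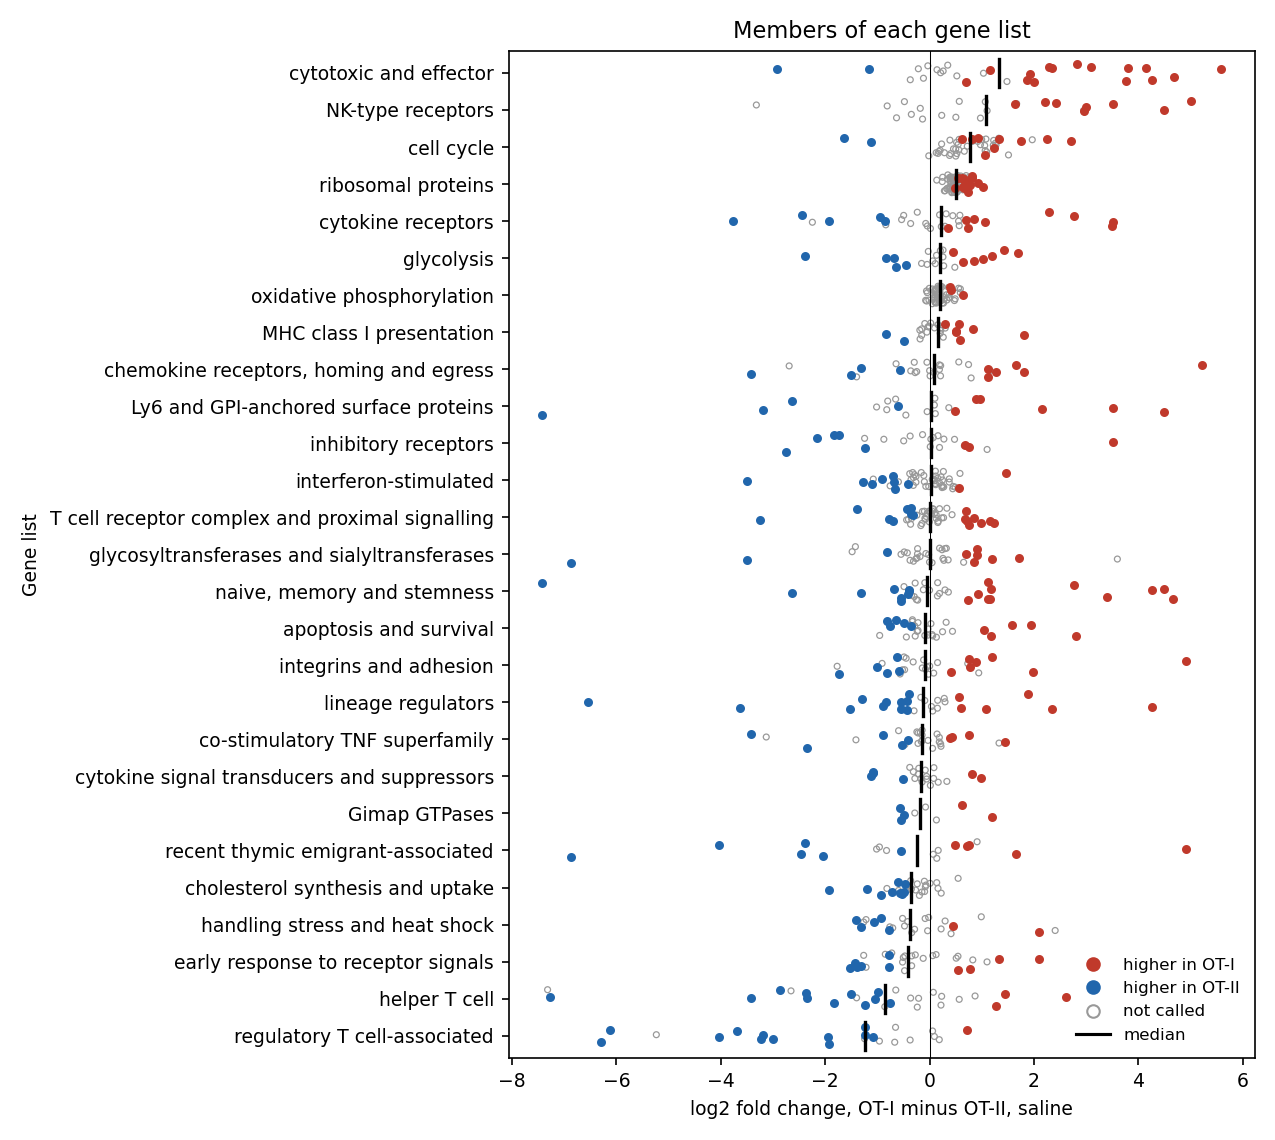
The log2 fold change between OT-I and OT-II saline libraries (horizontal axis) for each tested member of 27 gene lists (vertical axis, ordered by median). Filled dots passed the test, red where higher in OT-I and blue where higher in OT-II, open dots did not, and the black bar is the median, from 1.32 for the cytotoxic list to -1.24 for the regulatory T cell list.

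Leaving out both libraries numbered 1, an alternative added for the lists after their values were seen, left 12 cytotoxic genes higher in OT-I and 1 in OT-II. The same alternative left 8 helper genes and 8 regulatory T cell-associated genes higher in OT-II. It left 7 NK-type receptors higher in OT-I and 0 in OT-II. The OT-II counts fell to 4 for receptor signalling, 2 for homing, 2 for integrins, 3 for apoptosis and 5 for interferon-stimulated genes, and the OT-I count of thymic emigrant genes fell to 2.

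Several of the genes that differed most belong to none of these groups. Rnf43, a ubiquitin ligase that removes Wnt receptors, had 450, 491 and 491 CPM in OT-II and 5.61, 5.29 and 7.8 CPM in OT-I (-6.26 ± 0.78, adjusted p = 8.3e-06). Tspoap1, a scaffold protein, had 104, 161 and 187 CPM in OT-II and 1.25, 0.552 and 0.548 CPM in OT-I (-7.58 ± 0.99, adjusted p = 1.56e-05). The 2 genes are neighbours on chromosome 11, at 87662722 to 87735539 and 87760541 to 87785928. Supt4a, which lies between them and was named for its position, did not pass, with 181 to 220 CPM in OT-I and 232 to 263 CPM in OT-II (-0.30 ± 0.16, adjusted p = 0.225, and 0.0249 with the replicate block in the 6 saline libraries). Of the genes on either side of the pair, also named for their position after their values were seen, Sept4, which encodes a septin, was higher in OT-II at 10.8, 13.1 and 9.15 CPM against 0.714, 1.27 and 1.28 CPM (-3.33 ± 0.37, adjusted p = 2.26e-06). Lpo, which encodes lactoperoxidase, was called higher in OT-II at 0.328, 0.229 and 0.0857 CPM, close to the floor, against 0 CPM in the 3 OT-I libraries (adjusted p = 0.00818, and 0.0622 without both libraries numbered 1). Mks1 went the other way, with a mean of 19.6 CPM in OT-I and 12.9 CPM in OT-II (0.60, adjusted p = 0.037). No other tested gene within 200 kb of the pair passed.

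On the OT-I side, Adgrg5, an adhesion-type G protein-coupled receptor, had 214, 226 and 236 CPM and 4.04, 1.78 and 1.78 CPM in OT-II (6.48 ± 0.41, adjusted p = 1.04e-09). Slc6a19, a transporter of neutral amino acids, had 39.4, 35.3 and 35.2 CPM against 0.637, 0.735 and 0.471 CPM (5.88 ± 0.60, adjusted p = 6.18e-07). Haao, an enzyme of the kynurenine pathway, had 69, 59.1 and 58.9 CPM against 4.04, 0.604 and 1.61 CPM (4.91 ± 0.52, adjusted p = 1.1e-06), and Plac8 had 162 to 196 CPM against 2.48 to 13.1 CPM (4.75 ± 0.47, adjusted p = 4.72e-07). Cd163l1, a scavenger receptor family member, had 26.1 to 38.2 CPM against 0.212 to 1.33 CPM (5.59 ± 0.92, adjusted p = 0.000202). On the OT-II side, Ephb6, an ephrin receptor without kinase activity, had 117, 116 and 107 CPM and 11.9, 5.68 and 8.76 CPM in OT-I (-3.69 ± 0.52, adjusted p = 3.74e-05), and Igsf23 had 33.7 to 53.5 CPM against 0.567 to 1.75 CPM (-5.27 ± 0.71, adjusted p = 2.1e-05).

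Some of the strongest differences lay in neighbouring genes. Of 64 genes past a log2 fold change of 3 in size with a mean of at least 10 CPM, 6 pairs lay within 200 kb of each other. The share of all tested genes with so near a neighbour was not counted, so the pairs are a description only. Besides Rnf43 with Tspoap1, Cd8a with Cd8b1 and Ly6c1 with Ly6c2, they were Cd163l1 with 5830411N06Rik on chromosome 7, 16139 bases apart and both higher in OT-I, Rcn3 with Fcgrt on chromosome 7, 769 bases apart, and Ccdc102a with Adgrg5 on chromosome 8, 5596 bases apart. In all but the Ly6c pair both genes were higher in the same cell type. These pairs were named for their position after their values were seen, and reads that span overlapping or adjoining transcripts cannot be assigned from the counts.

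Of the 12 genes with the largest fold change towards OT-II, 3 scattered between the OT-II libraries by 7-fold or more, and the other 9 by at most 1.8-fold. Gm17571, a predicted gene, was listed at 2032, 76.6 and 2.46 CPM in OT-II libraries 1, 2 and 3 and between 0.0298 and 0.0567 CPM in OT-I, at or under the floor, so no fold is given. Cd80, a co-stimulatory ligand, had 428, 51.3 and 10.6 CPM in OT-II against 1.42 to 6 CPM in OT-I, and the olfactory receptor gene Olfr545 had 48.2, 6.88 and 9.9 CPM against 0.292 to 0.68 CPM. With molar-equivalent OVA the same genes gave adjusted p-values of 0.86 for Gm17571, 0.698 for Cd80 and 0.244 for Olfr545. In OT-II libraries with molar-equivalent OVA, Gm17571 stood at 0 to 0.195 CPM and Cd80 at 2.89 to 5.63 CPM. Gm17571 shares 52.4% and Olfr545 16.9% of their 31-base words with other genes.

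The same cell type difference was measured in other mice under each treatment, with no library in common with saline. With molar-equivalent OVA, 2433 genes (16%) passed, and 2325 of the 2356 genes called after saline (98.7%) had the same sign there. Of these, 1745 were called in the same direction, 74.1% of the saline calls and 71.7% of the molar calls, and 0 were called in the opposite direction. With A8B1-OVA, 3135 genes (20.6%) passed, 2230 of the saline calls (94.7%) had the same sign, 1494 were called in the same direction and 14 in the opposite one. With the higher dose of OVA, 1534 genes (10.1%) passed and 1112 saline calls were called in the same direction and 1 in the opposite. OT-I library 1 with the higher dose held 163 CPM of Cd4, against 0.341 and 1.82 CPM in the other libraries of that group. Other genes high in OT-II were raised in it too, such as Rnf43 at 144 CPM (8.62 and 10 CPM in the others). Ly6c1 stood at 94.1 CPM in it (2.54 and 1.75 CPM in the others). This library was also part of the fit that gave the saline p-values. Without it, 1801 genes passed with the higher dose, 946 higher in OT-I and 855 in OT-II, against 1534 with it. Of the 24 highest and lowest genes, 21 were called in the same direction with molar-equivalent OVA, 21 with the higher dose and 22 with A8B1-OVA. Gm17571 was 1 of those not called: with molar-equivalent OVA its mean was 0.0507 CPM in OT-I and 0.118 CPM in OT-II, so near the floor that no direction was read.

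The difference between treatments was tested directly. For molar-equivalent OVA against saline, 0 genes had a cell type difference that changed by edgeR's test (421 at an unadjusted p under 0.05, and 3 by DESeq2). For A8B1-OVA against saline, 66 genes (0.433%) did, 47 with a higher OT-I minus OT-II value under A8B1-OVA and 19 with a lower one. This count moved widely, between 30 and 111 when 1 library was left out, with 31 without the 5 libraries of raised markers, 101 with the replicate block and 248 by DESeq2. Of the 66, 44 were called after saline, and in 34 of these the difference was smaller in size with A8B1-OVA.

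Eomes was 1 of them. Its mean was 67.3 ± 7.23 CPM (SD, n = 3) in OT-I and 3.54 ± 1.74 CPM in OT-II after saline, and 117 ± 2.79 CPM and 111 ± 25.6 CPM with A8B1-OVA, where the cell types overlapped (change in the log2 difference -4.18 ± 0.46, adjusted p = 7.98e-05). Nrp1 turned over, from 3.17 ± 0.181 CPM in OT-I and 25.5 ± 5.23 CPM in OT-II to 49.9 ± 0.736 CPM and 16.7 ± 1.67 CPM (4.59 ± 0.46, adjusted p = 4.23e-05). Ctla4 did likewise, from 8.53 ± 2.32 CPM and 20.2 ± 4.1 CPM to 67 ± 8.68 CPM and 30.5 ± 8.36 CPM (2.37 ± 0.46, adjusted p = 0.0189). Lag3, an inhibitory receptor, had 0.455 ± 0.09 CPM and 1.09 ± 0.208 CPM after saline and 24.6 ± 8.72 CPM and 2.62 ± 0.972 CPM with A8B1-OVA (4.48 ± 0.66, adjusted p = 0.00183). Gata3 came together, from 59.3 ± 3.32 CPM and 105 ± 0.596 CPM to 72.7 ± 0.71 CPM and 76 ± 6.01 CPM (0.77 ± 0.12, adjusted p = 0.00253). Slfn2 (0.72 ± 0.14, adjusted p = 0.0247) and Lrrc32 (4.37 ± 0.96, adjusted p = 0.0482) changed as well. Without the 5 libraries of raised markers, Ctla4, Gata3, Slfn2 and Lrrc32 no longer passed.

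**Figure D4:**
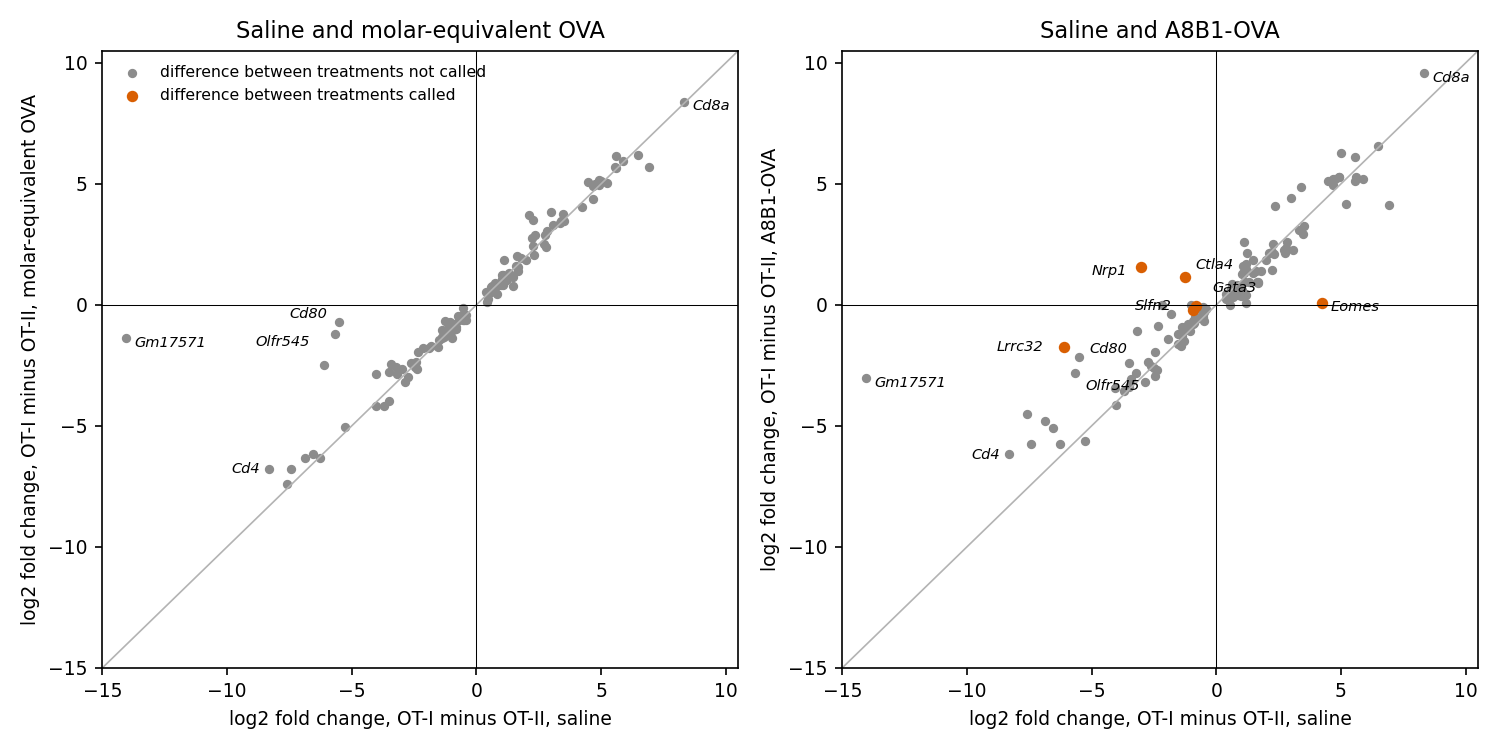
The log2 fold change between OT-I and OT-II cells after saline (horizontal axes) against that with molar-equivalent OVA (left) or A8B1-OVA (right), for the genes named by the rule that were called after saline. Orange dots are genes whose difference changed between treatments by the test, of which there are none on the left and 6 on the right, and Gm17571, Cd80 and Olfr545 lie off the diagonal on the left without passing it.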

How the data were processed

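The authors deposited 1 table of estimated counts per protein-coding gene for the 23 libraries. Per the submitters' processing notes, bcl2fastq, kallisto 0.46.1 (pseudoalignment) and GRCm38 were used, with the annotation release and strand setting not given in the sources used here. These deposited estimated counts were whole numbers and were used without further rounding. Libraries were grouped by their labels and columns were matched to libraries by the label that names each column.

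All 23 libraries were fitted together in edgeR 4.0.16 (R 4.3.3) with TMM scaling, filterByExpr (minimum count 10, minimum total 15), 8 group coefficients and no block. Quasi-likelihood tests gave p-values, adjusted over all 15235 genes by Benjamini-Hochberg, and a gene was called at an adjusted p under 0.05. SE is the absolute log2 fold change divided by the square root of F. CPM of genes use TMM-scaled totals, and summed markers use plain totals. The saline totals, 45086936 to 68228283 counts, set floors of 0.0665 to 0.044 CPM for 3 counts; without molecular identifiers the floor covers counting error only. No 2 saline libraries of the same cell type agreed within sampling noise, and the other groups were not checked for this.

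Saline libraries with the same number in their titles deviated together (r = 0.281, 0.129 and 0.128 across genes, each over 0.1), so the numbers were taken to pair them and a fit with the number as a block was run. In the other treatments the same-numbered values were less even. They were 0.138, 0.0113 and -0.0261 with molar-equivalent OVA, where OT-I 2 with OT-II 3 had 0.127. With the higher dose they were 0.0159 and -0.00485, and with A8B1-OVA 0.0119, 0.164 and 0.248. The labels do not say what a number shares. Alternatives were other scalings and filters, DESeq2 1.42.0, the block, a test against a fold of 1.5, and leaving out libraries. The 5 libraries of raised markers are OT-I saline 1, OT-I molar-equivalent OVA 2, OT-I higher-dose OVA 1, OT-II saline 1 and OT-II molar-equivalent OVA 3.

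The genes named are the 12 highest and 12 lowest log2 fold changes among called genes with at least 10 CPM and no overlap, up to 4 members with the lowest p of each of 35 gene lists, and a panel of T cell genes. The members and lists were chosen with earlier results of these data known. Beyond that rule, Ncr1, Klrb1c, Klra9, the members of a list's smaller side, Prf1, Gzma, Gzmb and genes given for their position were named after their values were seen. Shared sequence is the percentage of a gene's 31-base words found in another gene's transcripts (GENCODE M21). Promoters come from RefSeq (GRCm38.p6), coding sequences and positions from GENCODE M21 on GRCm38. The fit was tested on simulated data. Some named genes are not reported here.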

Additional observations from a re-analysis of the deposited data

Results flagged for a closer look

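The difference between OT-I and OT-II cells was tested between treatments, A8B1-OVA minus saline, with edgeR's quasi-likelihood test, and 66 genes passed. Among the genes named, these were Eomes, with a change in the log2 difference of -4.18, Nrp1 with 4.59, Ctla4 with 2.37, Lag3 with 4.48, Gata3 with 0.77, Slfn2 with 0.72 and Lrrc32 with 4.37. Of the 66 genes, 47 were also called between the cell types with A8B1-OVA, and 12 were called in both treatments in opposite directions. The OT-I values of Lrrc32 after saline lie near the floor, so its change rests on very few counts.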

How the results depend on the processing

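The saline count of 2356 stayed within 1.5 times under other scalings, filters, DESeq2 (2891), the 6 saline libraries alone and the loss of 1 library (1731 to 2067). It moved to 709 when tested against a fold of 1.5, 1499 without both libraries numbered 1 and 3550 with the replicate block in the 6 saline libraries; over all libraries the block gave 2514. With upper quartile scaling 1164 genes were higher in OT-I and 1209 in OT-II. The 66 genes whose difference changed with A8B1-OVA became 101 with the replicate block, 31 without the 5 libraries of raised markers, 248 by DESeq2 and 30 (without OT-I saline 2) to 111 (without OT-I A8B1-OVA 3) without 1 library. DESeq2 called 3 for molar-equivalent OVA. Without 1 library the calls ran from 1823 to 3717 with A8B1-OVA, from 681 to 1801 with the higher dose and from 1703 to 2538 with molar-equivalent OVA. The cause was not tested.

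Of the genes named, with Mks1 not checked, 20 lost their saline call without 1 of the 6 libraries: Klra9 without any of them, Cxcr3, Ikzf2, H2-T24 and Ndufa4 without 5, Tnfsf14, Atp5b and Stmn1 without 4, Tnf, Ndufa10 and Itgb3 without 3, Patz1 and Cdc45 without 2, and Gimap5, Ctla4, Il7r, Socs3, Satb1, Xcr1 and Klre1 without 1. Ifng, not called, ran from 0.394 to -0.0186 on the log2 scale. Beyond the calls given in the text, the replicate block changed no call of a named gene, and Mks1 was not checked. Depth limits the genes near the floor; for the others the number of libraries limits the precision.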
